A study of Mus musculus with 6 samples.

Results

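The cytosolic heat shock genes code for the chaperones that fold proteins outside the organelles and for the factor that induces them. A set of 10 such genes was followed: Hsf1, Hspb1, Hspa1b, Hspa8, Hspa4, Hsph1, Hsp90aa1, Hsp90ab1, Dnaja1 and Dnajb1. The set was chosen by the measured signal of Hspb1, which varied widely between arrays of the same group, so the spread of Hspb1 is given as a description and its difference between the groups was not tested. A probe set, the group of short probes that reads a transcript, was counted for a gene where the platform annotation names that gene alone. This gave 25 of the 45101 probe sets on the array, for 8 of the 10 genes; 18193 genes in all had such a probe set. Hsf1 and Hsp90ab1 had no such probe set in the annotation used and were not analysed here. Of the 25 probe sets, 23 passed the filter on dim signals, and 1 of Hspa4 and 1 of Hsp90aa1 lay below it.

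Total RNA of cultured endothelial cells (vessel-lining cells) from mouse lung was amplified and measured on Affymetrix expression arrays, with 3 control arrays and 3 arrays of cells lacking HIF-2α, 1 sample per array. HIF-2α, encoded by Epas1, is an oxygen-sensitive transcription factor, and the comparison asked how expression at low oxygen differs without it. All samples of both groups had spent 16 h at 0.5% oxygen, so no value here shows a response to low oxygen itself. The knockout cells came from mice with both Epas1 copies floxed and Cre under the VE-cadherin promoter, which is active in endothelium. The control genotype is given in 3 conflicting ways in the labels: Cre-positive with 1 copy floxed, both copies floxed, and wild type. Nothing in the labels says that the arrays stand for separate cultures or mice. A p-value here therefore reflects the spread between these arrays alone, which may be technical.

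Heat shock proteins bind unfolded proteins and keep them from aggregating. HSP70 proteins take up client proteins with the help of J-domain proteins, release them through nucleotide exchange factors of the HSP110 type, and pass some of them on to HSP90, while small heat shock proteins hold unfolded clients. The transcription factor HSF1 induces many of these genes under stress by binding heat shock elements, repeats of a short GAA unit in alternating orientation. In endothelium HSP90 is also known as a partner of the nitric oxide synthase.

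Signals are in the authors' intensity units on a linear scale, and 16 units served as the floor under which a signal was taken as not detected. The arrays had nearly equal medians (5.52 to 5.66 units), and their highest signals lay between 74347 and 78378. Controls 1 and 3 were closest to each other (their log2 differences over genes had an SD of 0.14, against 0.31 to 0.68 for the other pairs within a group). The arrays' variation within groups ran mostly along 1 shared axis (87.1% of the variance), with control 2 and knockout 2 at one end and knockout 3 at the other. The brightest Epas1 probe set, the only one looked at here, read 9611, 9590 and 9444 in controls 1 to 3 and 8920, 9397 and 9859 in knockouts 1 to 3. Its log2 difference was -0.02 ± 0.04 (limma adjusted p = 0.753), so it did not separate the groups. Which exons were removed is not given in the sources used here, and a probe outside them would check nothing. All 8 endothelial markers were over 16 units on at least 1 array, led by Emcn and Cdh5, with sums of 106034 to 113181 in controls and 85893 to 95286 in knockouts. Of these 4 were lower in knockouts (limma), against 5.07% of all genes: Tek by a log2 difference of -1.24 ± 0.15, Erg -0.67 ± 0.11, Tie1 -0.65 ± 0.13 and Pecam1 -0.34 ± 0.07 (adjusted p of 0.0161, 0.0262, 0.0408 and 0.0414). The other 4 did not pass. Cdh5 (-0.42 ± 0.13), Kdr (-0.23 ± 0.08) and Emcn (-0.08 ± 0.09) had limma adjusted p of 0.114, 0.125 and 0.633. Robo4 went the other way, at 0.28 ± 0.07 (limma adjusted p = 0.0613). Of the leukocyte markers 1 of 7 was over 16 units (Cd68, 3688 to 4252 units in controls and 756 to 1126 in knockouts, lower with a limma adjusted p of 0.00762), of the fibroblast and mural markers 1 of 8 (Tagln), and of the epithelial and erythroid markers 0 of 6 and 0 of 2 that had a probe set. The defining markers Ptprc, Pdgfrb, Acta2, Col1a1 and Epcam stayed at the floor on each array.

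The stretch upstream of the start site is shown for 4 members whose arrays differ in pattern: Hspb1 and Hspa1b, which were higher on some knockout arrays, Dnaja1, which was lowest on the 3 arrays where Hspb1 was highest, and Hsph1, whose brightest probe set changed little between arrays. RefSeq windows were given for 6 of the 10 genes, and the 4 shown are those with the motif marked below in at least 1 window. For Hsph1 and Dnaja1 the window of the first annotated start is shown. Each line below is 250 bases from RefSeq, build GRCm38.p6, 5′ to 3′ on the gene's strand and ending just before the start of transcription, with capitals at a heat shock element of 2 units (GAANNTTC or TTCNNGAA). The windows are chr5:135887669-135887918 on the plus strand for Hspb1, chr17:34959239-34959488 on the minus strand for Hspa1b, chr5:149636337-149636586 on the minus strand for Hsph1 and chr4:40722218-40722467 on the plus strand for Dnaja1.
Hspb1: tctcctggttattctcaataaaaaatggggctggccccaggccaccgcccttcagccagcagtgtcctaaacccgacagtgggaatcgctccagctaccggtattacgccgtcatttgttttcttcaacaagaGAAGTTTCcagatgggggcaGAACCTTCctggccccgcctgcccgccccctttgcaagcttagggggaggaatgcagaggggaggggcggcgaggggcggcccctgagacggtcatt
Hspa1b: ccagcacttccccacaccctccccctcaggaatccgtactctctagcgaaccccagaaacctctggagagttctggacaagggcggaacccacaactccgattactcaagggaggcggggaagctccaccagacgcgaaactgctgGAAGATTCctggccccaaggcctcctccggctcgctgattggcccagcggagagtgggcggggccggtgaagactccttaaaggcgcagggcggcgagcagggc
Hsph1: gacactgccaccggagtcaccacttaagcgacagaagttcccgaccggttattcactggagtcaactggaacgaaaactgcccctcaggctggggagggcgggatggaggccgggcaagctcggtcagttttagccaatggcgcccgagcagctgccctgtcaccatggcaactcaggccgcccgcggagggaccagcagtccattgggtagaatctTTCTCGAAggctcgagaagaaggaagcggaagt
Dnaja1: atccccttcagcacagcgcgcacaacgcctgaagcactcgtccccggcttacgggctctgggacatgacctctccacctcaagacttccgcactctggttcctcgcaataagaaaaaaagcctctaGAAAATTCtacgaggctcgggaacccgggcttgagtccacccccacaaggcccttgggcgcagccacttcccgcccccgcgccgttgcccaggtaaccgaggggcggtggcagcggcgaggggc

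The 2-unit motif reads the same on both strands. It occurred in 4 of the 6 genes with a window (those shown), against 14.5% of 27025 genes with windows of the same length. Hspb1 held 2 matches, GAAGTTTC ending 110 bases and GAACCTTC ending 90 bases before the start. Hspa1b held GAAGATTC ending 97 bases before the start, Dnaja1 GAAAATTC ending 117 bases before, and Hsph1 TTCTCGAA ending 26 bases before. Dnaja1 has 3 annotated starts, and its match lies in the window of the first of them. The 3-unit form, which is the 2-unit motif followed after any 2 bases by a further GAA or TTC unit in alternating orientation, was found in 0 of these 6 genes and in 0.514% of all genes. The core of the hypoxia response element, ACGTG or GCGTG on either strand, occurred in 4 of the 6 genes and in 41.5% of all. It was found upstream of Hspa4, Dnajb1, the second Hsph1 start and the later Dnaja1 starts, but not in the windows of Hspb1 and Hspa1b. A match is a run of letters and does not show that a factor binds.

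Hspb1 codes for HSP27, a small heat shock protein that also binds actin filaments. Its signal (probe set 1422943_a_at) was 16.4, 35.6 and 16.0 units in controls 1 to 3 and 222, 178 and 34.4 units in knockouts 1 to 3. Knockouts 1 and 2 were far above all controls, whereas knockout 3 lay just under control 2, so the groups overlapped. The lowest and highest arrays differed 13.9-fold, but controls 1 and 3 lay just above the floor of 16 units, so this ratio rests on barely detected signals. Group means were 22.7 ± 11.2 units in controls and 145 ± 98.2 in knockouts (SD, n = 3 each), a log2 difference, knockout minus control, of 1.81 ± 0.68 (SE, on the log2(signal + 16) scale, where dim signals change less than their fold). With a pseudocount of 1 the difference was 2.34, with 64 it was 1.14, and with the mean of both probe sets 1.21. Without knockout 3 the difference was 2.51, and with each array's spike-in level as a covariate, an alternative chosen after seeing the data, it was 0.39 ± 0.66 (SE). The spike-in level was itself higher in knockouts 1 and 2 than in any control. This covariate therefore cannot be fully told apart from the grouping. The dimmer Hspb1 probe set (1425964_x_at) gave 4.94, 6.75 and 5.08 units in controls, all under the floor, and 23.5, 23.3 and 6.79 units in knockouts. Knockouts 1 and 2 were again the arrays with signal, and knockout 3 was also under the floor.

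The spread of Hspb1 was wider among knockouts than among controls, as values that were not tested. Its SD on the log2 scale was 0.39 among controls and 1.22 among knockouts, and pooled within groups it was 0.90. The median over 12277 genes was 0.17. The pooled value ranked 246 from the top, above 98.0% of genes, and was the largest of the 8 measured members on this scale. Without knockout 3 the pooled SD fell to 0.34, and with control 2 and knockout 3 both left out, also chosen after seeing the data, to 0.15. The order with Hsp90aa1 was not stable: Hspb1 was the less variable of the pair among controls (0.39 against 0.49), with a pseudocount of 64 (0.60 against 0.77), without knockout 3 (0.34 against 0.57), without knockout 1 (0.86 against 0.89) and with control 2 and knockout 3 left out (0.15 against 0.50).

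Among the other members, Hsp90aa1 (0.77) and Dnaja1 (0.40) also had pooled SDs within groups above those of 96.4% and 87.5% of genes. The remaining members had pooled SDs of 0.20 (Hspa1b), 0.11 (Dnajb1), 0.09 (Hspa4), 0.07 (Hsph1) and 0.02 (Hspa8).

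**Figure D1:**
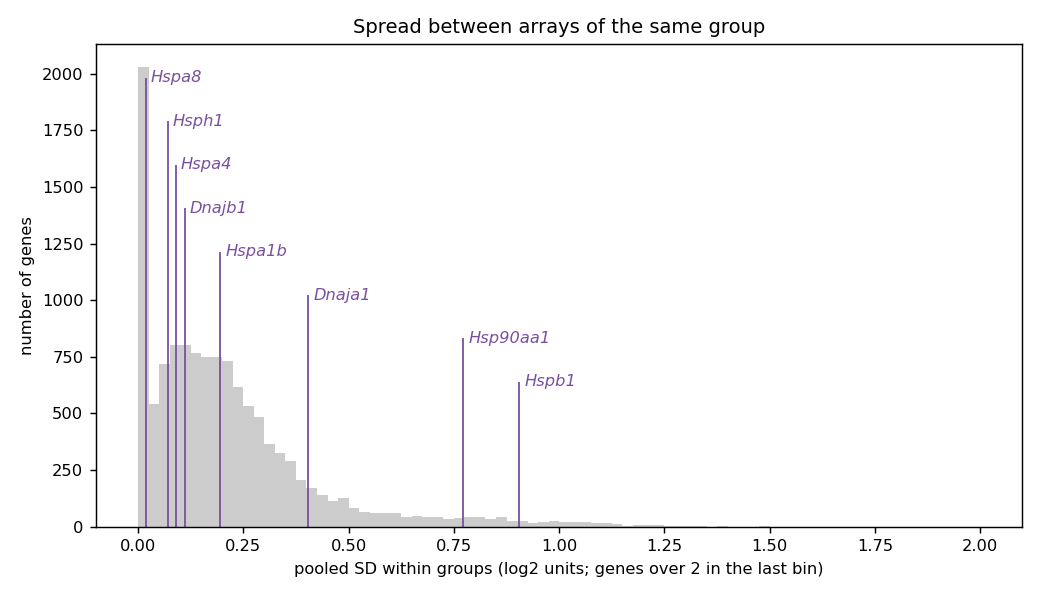
Histogram of the pooled SD within groups (x axis, log2 units) over the 12277 genes tested (y axis, number of genes), with a labelled line at each of the 8 measured heat shock genes; line heights only separate the names. Hspb1 (0.90) and Hsp90aa1 (0.77) lie in the upper tail, Dnaja1 (0.40) above most genes, and the other 5 at 0.20 or below.

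Some measures moved with Hspb1 over the arrays and others did not. The bioB and bioC probe sets read control RNA that is spiked into each hybridisation, and their mean signal was 1734, 2025 and 1898 units in controls 1 to 3 and 2252, 2307 and 1993 units in knockouts 1 to 3. It was highest in control 2 among controls and lowest in knockout 3 among knockouts, as for Hspb1. The middle 18S ribosomal RNA probe set read 14895, 27115 and 16222 units in controls and 23356, 17133 and 11365 units in knockouts. The ratio of the 3′ to the 5′ actin probe set, a sign of RNA quality, ran from 1.45 to 1.59 in controls and from 1.42 to 1.49 in knockouts, and that of Gapdh from 1.26 to 1.30 and from 1.25 to 1.29. Within groups the actin ratio was lowest in control 2 and highest in knockout 3, the reverse of Hspb1. The Gapdh ratio was lowest in control 2 and in knockout 2. Tagln, the mural marker over the floor, read 44.0, 74.9 and 32.1 units in controls and 207, 167 and 70.2 units in knockouts. The sum of the 8 fibroblast and mural markers was 66.3 to 110 units in controls and 104 to 241 units in knockouts, with the other 7 markers under 16 units. The part of these measures in the Hspb1 values was not tested beyond the covariate above.

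Hspa1b codes for a stress-inducible HSP70. Its brightest probe set (1452318_a_at) read 2952, 2863 and 2641 units in controls and 3533, 4485 and 3124 units in knockouts. All knockouts were above all controls, and knockout 3 was the closest to them. This made Hspa1b the 1 of 7 tested members whose groups did not overlap, where 36.2% of all genes did so. Means were 2819 ± 160.0 and 3714 ± 698 units (SD, n = 3 each), with a log2 difference of 0.38 ± 0.15 (limma adjusted p = 0.16), which did not pass the threshold of 0.05. Without knockout 2 the difference was 0.24 and the pooled SD fell to 0.099. The dimmer probe sets read 183 to 229.8 units in controls against 196 to 337 in knockouts, and 109.8 to 157 against 123 to 219.6. In both of these knockout 3 fell within the control range. Hspa1a is a near-identical neighbouring copy, whose window upstream differs from that of Hspa1b in 3 of 250 bases. Its own probe set stayed at 6.76 to 7.89 units, under the floor, so which copy the Hspa1b probes read is uncertain.

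Hspa8, the constitutive HSP70 (HSC70), varied little on its bright probe sets. Its brightest probe set (1420622_a_at) read 57168, 57429 and 58421 units in controls and 58914, 57577 and 59166 units in knockouts, 1.03-fold from lowest to highest. These values lie near the highest signals of the arrays. The log2 difference was 0.02 ± 0.02 (limma adjusted p = 0.512). A dimmer probe set (1431182_at), further from the top of the scale, gave 627, 677 and 934 units in controls and 723, 729 and 819 in knockouts, with overlapping groups. That probe set varied more, 1.49-fold from lowest to highest with a pooled SD of 0.22. Of the other bright probe sets, 1420623_x_at had separate groups, 43116 to 43884 units against 44394.7 to 44751 (log2 difference 0.03 ± 0.01, adjusted p = 0.194 over all 27023 probe sets in limma). Groups were separate in 31.2% of all probe sets. In 1455789_x_at they overlapped, with 43405 to 46449 units in controls and 43719 to 44764 in knockouts, and the difference had the opposite sign (-0.02 ± 0.03).

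The HSP110-type exchange factors Hspa4 and Hsph1 varied little on their brightest probe sets and more on dimmer ones. Hspa4 (1416146_at) read 15839, 15880.4 and 16104 units in controls and 15764, 14281 and 16988 in knockouts, so the control values lay inside the knockout range. Its log2 difference was -0.03 ± 0.07 (limma adjusted p = 0.857). Dimmer Hspa4 probe sets had the opposite sign and wider pooled SDs within groups than the median gene. Probe set 1416147_at ran from 1752 to 2147 units in controls and 1878 to 2731 in knockouts (log2 difference 0.23 ± 0.17, SD 0.23), and 1435194_at from 3033 to 3903 and 3209.6 to 4106 (0.08 ± 0.15, SD 0.20). In both the groups overlapped. Hsph1 (1425993_a_at) read 19770.5, 19358 and 19259 units in controls and 20965, 18313 and 19449 in knockouts, with knockout 1 highest and knockout 2 lowest of all arrays. Its log2 difference was 0.01 ± 0.05 (limma adjusted p = 0.943). The dimmer probe set (1423566_a_at) read 3489.6, 4004 and 3714 units in controls and 4833, 3418 and 3658 in knockouts, with a pooled SD of 0.20. Knockout 1 was again the highest array and knockout 2 the lowest.

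The inducible HSP90 gene Hsp90aa1 also varied widely, in the opposite direction to Hspb1 along most arrays. Its brightest probe set (1426645_at) read 13569, 7968 and 15014 units in controls and 7038, 3533 and 13701 units in knockouts. Control 2 and knockouts 1 and 2 were low, and knockout 3 lay between controls 1 and 3, so the groups overlapped widely. Lowest and highest arrays differed 4.25-fold. The other bright probe sets gave the same low arrays: 12942, 7056 and 13245 units in controls and 6217, 3372 and 11934 in knockouts for 1437497_a_at, and 11971, 7626 and 12676 against 7109, 5502 and 12124 for 1438902_a_at. Means of the brightest were 12184 ± 3722 and 8090.5 ± 5165 units (SD, n = 3 each), with a log2 difference of -0.75 ± 0.58 (limma adjusted p = 0.438). It was -0.26 without knockout 2 and -1.23 without knockout 3. After adding the spike-in covariate the difference turned to 0.50 ± 0.53.

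The J-domain gene Dnaja1, whose protein hands clients to HSP70, followed Hsp90aa1. It read 10873, 7535 and 10611 units in controls and 7626, 4918 and 9606 in knockouts (1416288_at). Control 2 and knockouts 1 and 2 were again the lowest arrays. The dimmer probe sets ranged further, 1701 to 3648 units in controls against 1170 to 3040 in knockouts, and 1352 to 2840 against 795 to 2127, with the same 3 arrays low. The log2 difference was -0.42 ± 0.31 (limma adjusted p = 0.405), and turned to 0.24 ± 0.27 with the spike-in covariate. It was -0.16 without knockout 2 and -0.64 without knockout 3. Dnajb1, the stress-induced J-domain partner of HSP70, went another way. It read 10314, 11069 and 10881 units in controls and 10682, 12882 and 10899 in knockouts (1416755_at), with knockout 2 highest. Its log2 difference was 0.09 ± 0.09 (limma adjusted p = 0.525), and 0.0054 without knockout 2. The dimmer probe set (1416756_at) read 2322, 3112 and 2304 units in controls and 2611, 3221 and 2335 in knockouts, with a pooled SD of 0.24. Control 2 and knockout 2 were its highest arrays.

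**Figure D2:**
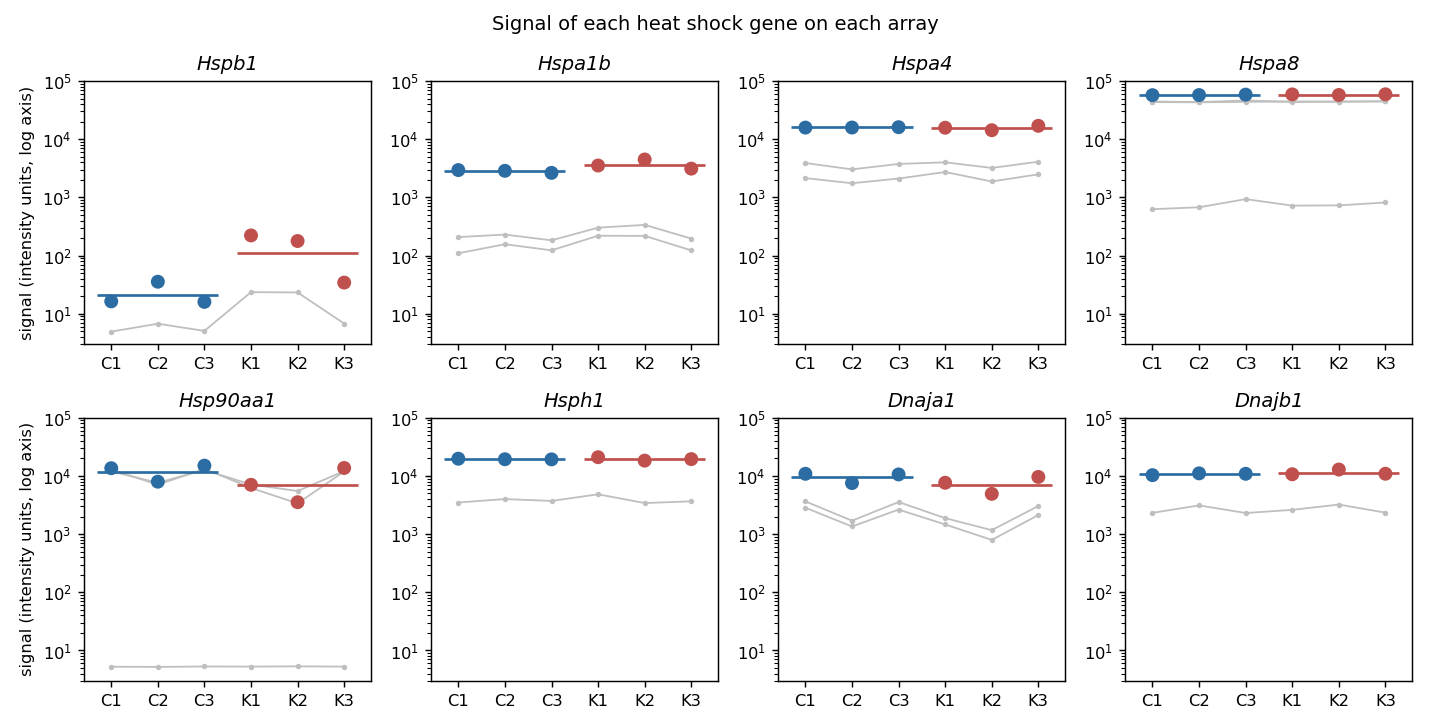
Signal (y axis, intensity units, log axis) of the 8 measured heat shock genes on controls 1 to 3 (C1 to C3, blue) and knockouts 1 to 3 (K1 to K3, red); dots are the probe set that stands for the gene, horizontal lines its geometric group means, and grey lines the gene's other probe sets past the filter. Hspb1 was high in knockouts 1 and 2 (222 and 178 units), Hsp90aa1 low in the same arrays and in control 2 (7038, 3533 and 7968 units), and Hspa8 level between 57168 and 59166 units.

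Knockout against control, 0 of the 7 tested members passed the threshold in limma, and 0 had an unadjusted p under 0.05. Over all genes 13.7% passed. At an unadjusted p under 0.05 in limma, 1 member each was counted with a pseudocount of 1, with 60% of probe sets left out, with a variance trend, without knockout 3, and with control 2 and knockout 3 left out. The share of all genes under that unadjusted cutoff was not counted, so these member counts have no background. Counted by probe set, 0 of 21 passed (0 at an unadjusted p under 0.05, the smallest being 0.0525), against 7.65% of all probe sets (4.46% higher and 3.19% lower in knockouts), and the groups did not overlap in 2 of 21, against 31.2%. The median log2 difference of the 7 members was 0.01, equal at this rounding to the median over all genes (0.01). A p that misses the threshold does not show that the groups are alike, above all for Hsp90aa1 and Dnaja1, whose SEs of 0.58 and 0.31 leave room for large differences in either direction. The members kept this count of 0 with each array left out in turn. With array weights 5 of 7 passed, as did 8541 of all 12277 genes, so this count does not set the members apart. That fit gave knockout 1 a weight of 206 against 0.111 to 2.61 for the other arrays and stopped before it converged.

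Deviations of the arrays from their group means set the members apart in direction. Correlated over the 6 arrays, as a description, the deviations of Hspa1b (r = 0.64) and Dnajb1 (r = 0.34) ran with those of Hspb1, and those of Hsp90aa1 (r = -0.81), Hspa4 (r = -0.72), Dnaja1 (r = -0.71) and Hspa8 (r = -0.45) ran against them. Hsph1 had r = 0.15. The points share their arrays and the axis described above, and 4 of them are free once the group means are set. In knockout 3, Hspb1 had a deviation of -1.40 on the log2 scale, while Hsp90aa1 lay 0.97 and Dnaja1 0.43 above their group means. In control 2, Hspb1 was 0.45 above, and the deviations of Hsp90aa1 and Dnaja1 were -0.56 and -0.34.

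**Figure D3:**
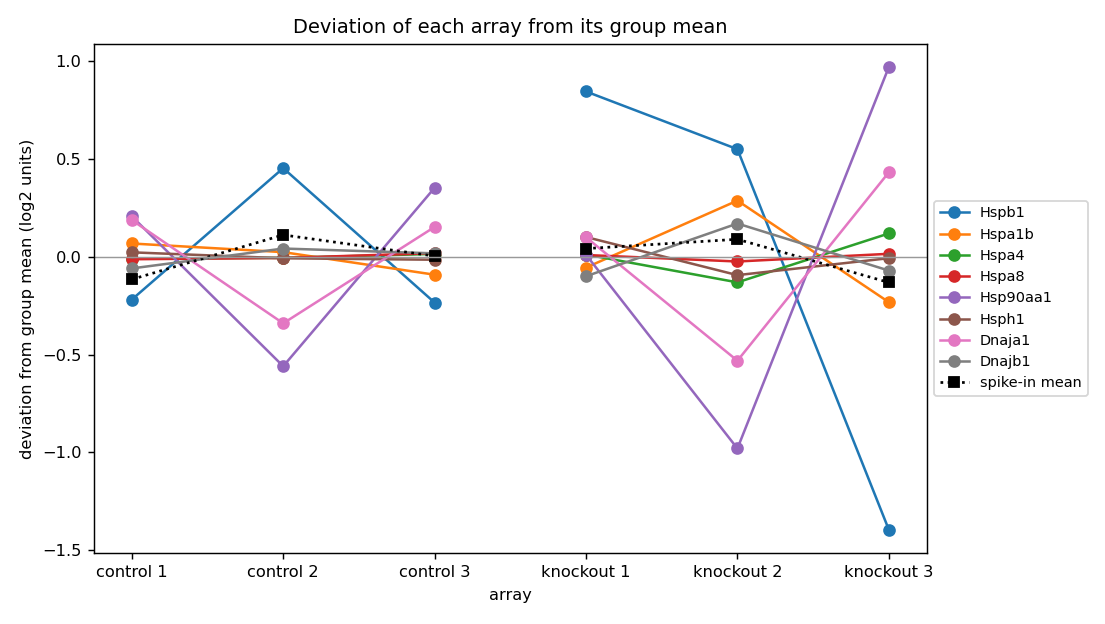
Deviation of each array from its group mean (y axis, log2 units) for the 8 measured heat shock genes (colours) and the mean of the spike-in control probe sets (black squares, dotted); lines join the arrays of a group to guide the eye and imply no order. Hspb1 is above its mean in control 2 and knockouts 1 and 2 and at -1.40 in knockout 3, where Hsp90aa1 is at 0.97.

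Of the 1016 other genes with a pooled SD within groups of at least 0.5, 25 had r of at least 0.9 with the Hspb1 deviations and 370 had r of -0.9 or below. The most alike were Lzts3 (r = 0.992), Pi4kb (0.991), a phosphatidylinositol kinase, Usf1 (0.983), a transcription factor, Pim2 (0.978), a serine/threonine kinase, Hlx (0.971), a homeobox factor, and Ppp2r5b (0.967), a phosphatase subunit. Pim2 read 71.5, 92.3 and 79.1 units in controls and 229, 238 and 92.9 in knockouts, and Usf1 154, 206 and 155 against 247, 264 and 72.5. Both were lowest in knockout 3 among knockouts and highest in control 2 among controls, as was Hspb1.

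Other chaperone genes were taken as 8 lists with 73 genes, of which 62 were tested. In limma 12 were called higher in knockouts, 3 lower and 47 did not pass, so 19.4% were called higher and 4.84% lower, against 8.63% and 5.07% of all genes. The median log2 difference was 0.04. The excess of higher calls depended on the filter. With 60% of probe sets left out, 10 of 57 list genes were called (70% of the calls higher). Over all genes that setting called 1885 of 9449 (67% of the calls higher), so the list share was not above that of all genes. With no filter the list share stayed above it. There 9 of 70 list genes were called (77.8% of the calls higher), against 883 of 18193 genes (58.1%). One of the 12, Dnaja4, passed the filter on dim signals only through the knockouts, and 11 were higher without it. These calls, like those over all genes, depended on single arrays. Of the 15, all kept their call when knockout 3 was left out, 8 for knockout 2 and 6 for control 2. Only 2 did so for knockout 1, and 0 for control 1 or control 3. Counting new calls too, limma called 21 chaperone genes when knockout 3 was left out, 9 for knockout 2, 7 for control 2 and 2 for knockout 1. It called 0 when control 1 or control 3 was left out, with 16 and 19 at an unadjusted p under 0.05. Calls over all genes moved likewise, from 1683 to 3008 without knockout 3, 974 without knockout 2 and 906 without control 2. They fell to 315 without knockout 1, 207 without control 1 and 212 without control 3. The endothelial markers Tek, Erg, Tie1 and Pecam1 and the leukocyte marker Cd68 differed between the same groups, as given above, and their part in the chaperone calls was not tested.

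Among other small heat shock proteins, 2 of 4 tested fell and 0 rose, against 5.07% and 8.63% of all genes. Cryab, the αB-crystallin chaperone, read 5380, 5758 and 5570 units in controls and 3385, 4233 and 3306 in knockouts, a log2 difference of -0.62 ± 0.11 (limma adjusted p = 0.0321). Hspb11, also known as a subunit of the intraflagellar transport complex, fell by 0.48 on the log2 scale (limma adjusted p = 0.0154). Hspb6 read 257, 255 and 254 units in controls and 369, 553 and 325 in knockouts, and did not pass (0.63 ± 0.21, limma adjusted p = 0.115). In all 3 genes the groups did not overlap, where 36.2% of all genes did so. They were also separate for Hspb9, the other tested gene of this list, which stayed under the floor at 6.43 to 8.55 units.

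Of the other heat shock factors and their binding proteins 0 of 4 passed (2 at an unadjusted p under 0.05 in limma: Hsbp1, a regulator of HSF1, with a difference of -0.13 ± 0.05, and Hsf2bp, under the floor on each array). Among other HSP70 and HSP110 genes, Hspa14 rose (0.35 ± 0.05, limma adjusted p = 0.0203), with 4937 to 5241 units in controls and 6076 to 6706 in knockouts, and the other 4 tested did not pass. Hspa4l, an HSP110 relative, varied most of them within groups, at 103, 76.1 and 182 units in controls and 72.8, 16.9 and 119 in knockouts. Knockout 2 was its lowest array, as for Hsp90aa1.

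Of 12 other J-domain genes 2 were called higher and 1 lower, against 8.63% and 5.07% of all genes, and 9 did not pass. Dnaja4, 1 of the 2 higher, read 3.71 to 5.09 units in controls, under the floor, and 45.5, 83.5 and 24.1 units in knockouts. It was tested only because of its knockout signals, so its values are a description. Without it 1 J-domain gene was higher. Dnajc9, a histone chaperone with a J domain, rose by 0.61 ± 0.08, and Dnajb6, a suppressor of aggregation, fell by 0.43 on the log2 scale, from 13973 ± 318 to 10365 ± 694 units (SD, n = 3 each; limma adjusted p = 0.0178). Dnajb4 and Dnajc2 varied most within groups: Dnajb4 read 2378, 1099 and 2465 units in controls and 1029, 704 and 1645 in knockouts, and Dnajc2 3498, 2044 and 3416 against 1590, 1092 and 3472. Control 2 and knockouts 1 and 2 were their lowest arrays, the same ones as for Hsp90aa1 and Dnaja1, and neither gene passed.

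Among HSP70 exchange factors and adaptors Bag1 and Bag4, which code for nucleotide exchange factors of the BAG family, rose by 0.25 ± 0.05 and 0.70 ± 0.13, and the other 7 of 9 did not pass. Bag4 read 336, 381 and 320 units in controls and 572, 664 and 489 in knockouts. Of 13 HSP90 cochaperones, Ahsa1, which activates the HSP90 ATPase, rose from 6165 ± 424 to 9586.5 ± 1077 units (SD, n = 3 each; log2 difference 0.63 ± 0.10, limma adjusted p = 0.029). The other 12 did not pass. Among them Fkbp4, a peptidyl-prolyl isomerase, and Cdc37, which brings kinases to HSP90, had separate groups, as had 36.2% of all genes. Their differences were 0.80 ± 0.22 and 0.63 ± 0.18 (limma adjusted p = 0.0803 and 0.0841). In both genes knockout 3 was the lowest knockout array and control 2 the highest control array. Pih1d1 also had separate groups and was higher (0.75 ± 0.23), whereas Cdc37l1 had separate groups and was lower (-0.29 ± 0.11). Ahsa2, whose groups overlapped, was lower too (-0.72 ± 0.27).

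The TRiC chaperonin, a double ring that folds actin and tubulin, had 4 of 8 subunit genes called higher and 0 lower. Over all genes the shares were 8.63% and 5.07%. These rises were small: Cct7 rose from 31324 ± 298 to 35388 ± 327 units (SD, n = 3 each; log2 difference 0.18 ± 0.02, limma adjusted p = 0.0104), and Cct5 and Cct6a rose by 0.17 ± 0.02 and 0.14 ± 0.02. The other 4 did not pass. Of these Cct2 pointed higher (0.05 ± 0.02), whereas Cct8 (-0.34 ± 0.22), Cct4 (-0.15 ± 0.18) and Tcp1 (-0.12 ± 0.14) pointed lower. Cct8 had the widest spread of the list, with 19092, 15681 and 20208 units in controls and 14005, 11373 and 18866 in knockouts. Control 2 and knockouts 1 and 2 were again low. Of 7 mitochondrial chaperone genes 2 rose, where 8.63% of all genes did so. These were Hspe1, the HSP10 lid of the mitochondrial chaperonin (0.47 ± 0.09, limma adjusted p = 0.0413), and Grpel2, a nucleotide exchange factor of mitochondrial HSP70 (0.82 ± 0.12, limma adjusted p = 0.0218). Hspd1, the HSP60 partner of Hspe1, read 6189, 5291 and 6333 units in controls and 7603, 6073 and 7628 in knockouts and did not pass. Grpel1 had separate groups and was lower (-0.36 ± 0.11), and did not pass either (limma adjusted p = 0.11).

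**Figure D4:**
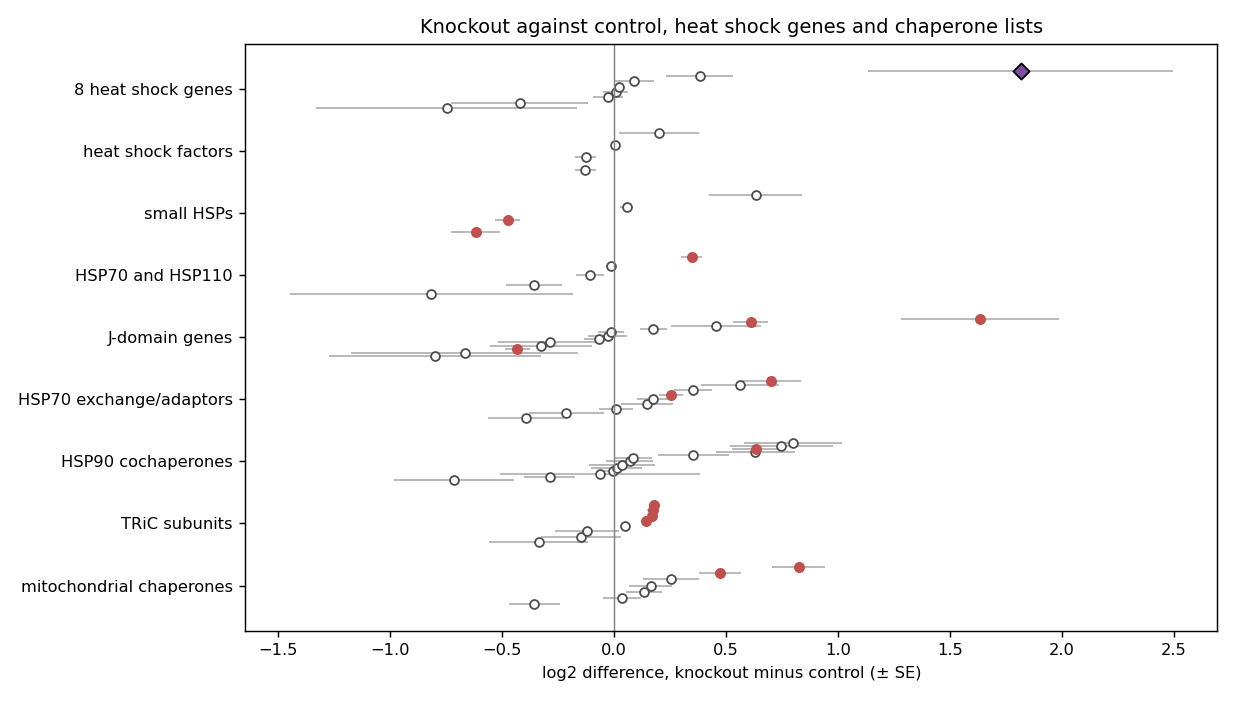
Log2 difference, knockout minus control (x axis, ± SE), for the 8 measured heat shock genes (top row) and the tested genes of the 8 chaperone lists (rows below); filled red points passed the limma adjusted p threshold of 0.05, open points did not, and the purple diamond is Hspb1, which was not tested. None of the heat shock genes in the top row is filled, whereas 12 list genes are filled above 0 and 3 below.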

How the data were processed

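The values the authors deposited are intensities, not logged, with 1 for every probe set on every array; per the submitters' processing notes MAS5 and GCRMA were used, with no versions or roles given. From the values the arrays were already normalized to each other, and no further normalization was applied. Dim probe sets lie in a narrow band near the floor, so their spread is small.

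Values were taken as log2(intensity + 16). The 40% of the 45037 non-control probe sets with the lowest mean were left out, which left 27023. The platform annotation names 34958 probe sets by 1 gene, 932 by several and 9211 not at all. Each gene was represented by its brightest probe set (12277 genes). Groups came from the titles. The groups were compared with limma 3.58.1 (R 4.3.3; lmFit, eBayes, two-sided) and Benjamini-Hochberg adjustment over all genes, or over all probe sets where stated, with a threshold of 0.05. The fit was run on simulated data with noise drawn separately for each gene and array. Such data lack the axis shared by the real arrays, so they do not check the calls under it. Precision is limited by the number of arrays.

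The members and lists were chosen with earlier results of these data known. Named genes are the members, the 6 most like Hspb1 within groups, up to 3 genes of each list by smallest p and 2 by largest spread, Epas1 and the brightest markers; other markers were named after their values were seen. Alternatives covered scaling, pseudocount, filter, probe sets, variance model, array weights, leaving out each array, and a block on the replicate number. Promoter windows and their coordinates are from RefSeq (GRCm38.p6).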

Additional observations from a re-analysis of the deposited data

How the results depend on the processing

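The count of 0 called among the 7 tested members held under all alternatives except array weights (5). At an unadjusted p under 0.05 in limma, array weights gave 5 members, the replicate block 2 and 5 other alternatives 1 each. No share of all genes was counted at that unadjusted cutoff. The members' differences kept their direction in all but 8 cases, all with an adjusted p over 0.05: Hspa4 turned to 0.094 with the mean of a gene's probe sets, 0.038 without knockout 2 and 0.082 with the spike-in covariate (-0.087 to 0.038 with 1 array left out); Hsph1 to -0.0013 without control 3 and -0.044 without knockout 1 (-0.044 to 0.053 with 1 array left out); and with the spike-in covariate Hsp90aa1 turned to 0.50, Dnaja1 to 0.24 and Dnajb1 to -0.042. The cause was not tested. Over all genes, 1683 were called, and 883 with no filter, which tests more genes, 8541 with array weights, 2995 with the replicate block, 444 with the spike-in covariate, 194 with controls 1 and 3 averaged, 4644 without control 2 and knockout 3, and 207 to 3008 with 1 array left out. Over probe sets, 2066 were called, and in the same order 860, 17235, 3777, 214, 183, 7949 and 193 to 3618. Chaperone list genes called were 15, and 9 with no filter, 52 with array weights, 22 with the replicate block, 0 with the spike-in covariate (22 at an unadjusted p under 0.05 in limma), 0 with controls 1 and 3 averaged (17), 28 without control 2 and knockout 3, and 0 to 21 with 1 array left out. Same-numbered arrays did not all deviate together (correlations of -0.47, 0.84 and 0.80 for replicates 1 to 3), so the numbers were not taken to pair the samples. The spike-in covariate, the averaged controls, leaving out control 2 and knockout 3, and the list counts were added after the data were seen.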
